A study of Oryza sativa with 36 samples.

Results

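Expansins and xyloglucan endotransglucosylase/hydrolases are the proteins that let plant cell walls yield during growth, and the genes encoding them were followed here in roots and shoots of 2 rice genotypes under salt with and without abscisic acid (ABA). Genes were taken as members when the annotation gave them an expansin name (EXPA for alpha-expansins, EXPB for beta-expansins, EXLA or EXLB for expansin-like proteins) or an XTH or XET name, and when at least 1 probe set of the array named that gene alone. Of 50 such genes in the annotation, 30 were measured, by 34 probe sets, among 17905 named genes and 57258 probe sets tested. They were 14 of 29 EXPA genes, 11 of 15 EXPB genes, all 4 EXLA genes and XTH8, the 1 gene with an XTH name. The other 20 genes, among them EXPA17, EXPB5 and EXLB1, had no probe set that named them alone and were not analysed here. EXPA30 was not analysed here either. Where a gene had several probe sets, the one with the highest mean over all arrays was used.

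Expansins loosen the wall without cutting its polymers, and they work best in an acidified wall. Alpha-expansins act on contacts between cellulose and xyloglucan, whereas the grass beta-expansins are best known from pollen allergens that act on arabinoxylan. Expansin-like proteins share the fold, but no wall-loosening activity has been established for them. XTH enzymes cut xyloglucan chains and join the cut ends to other chains or to water. Grass walls hold little xyloglucan and much arabinoxylan, and beta-expansins are numerous in grasses. Under salt, shoot growth slows early, and ABA is known both to restrain shoot growth and to help sustain root growth at low water potential.

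The samples were PL177, a salt-tolerant F6 line selected from introgression lines in the IR64 background, and IR64, its salt-sensitive recurrent parent. PL177 is thus 1 inbred line, and it shares most of its genome with IR64. Seedlings grown in nutrient solution to the 3-leaf stage received 140 mM NaCl with 10 µM ABA (salt+ABA), 140 mM NaCl (salt), or neither (control), and the labels give 4 days of treatment for the salt+ABA and salt samples, while the study's methods describe a longer treatment before plants were scored. Each of the 12 groups of genotype, organ and treatment had 3 arrays described as biological replicates, which gave 36 arrays in all. No group received ABA without salt, so that ABA was tested only on top of salt. The labels call the shoot samples leaf, and they are called shoots here.

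Values are intensities, the brightness of a probe set on an array, as deposited. The median of an array was 56.9 to 64.5. Of all values 31.2% fell under 32, taken here as the unresolved range, where brightness no longer follows the transcript closely. That limit was assumed and not measured. Fold changes are on the scale of log2(intensity + 32) and understate changes of dim genes. A gene was called up- or down-regulated when the change exceeded 2-fold and its limma p, adjusted by Benjamini-Hochberg over all 57258 probe sets, was under 0.05. The number of arrays limits the precision. Differences in how bright 2 genes are reflect their probes too, so each gene was tested only against itself, and the brightest probe sets are named below as signal and not as an order of transcript levels. In bulk organs, fewer cells of a type and less RNA per cell cannot be told apart.

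The organ labels were checked against marker genes. The summed intensity of 5 root markers was 17643 to 27016 in roots and 1336 to 5162 in shoots. Of these, Lsi1, Lsi2 and NRAMP5 were called higher in control roots than in control shoots of both genotypes. NAAT1 and IRT1 were not. Their log2 differences were -0.60 and -0.33 in PL177, and -1.03 (called lower in roots) and -0.25 in IR64. The summed intensity of 2 leaf markers, CAB2R and rca, was 4032 to 14764 in roots and 33298 to 36570 in shoots. The leaf markers were thus not absent from roots, and they moved with treatment there. Their summed intensity in roots was 4032 to 6558 under salt+ABA, 11734 to 14764 under salt and 5554 to 10772 in the control. The summed root markers, most of whose signal came from the silicon transporters Lsi1 and Lsi2, were 17643 to 20138 in salt+ABA roots, 23721 to 27016 in salt roots and 23201 to 26481 in control roots. Single root markers moved otherwise. The iron transporter gene IRT1 had means of 171 in salt+ABA, 343 in salt and 34.8 in control roots of PL177, and 186, 339 and 45.8 in those of IR64, and NAAT1 was called higher with salt+ABA than with salt in PL177 roots (log2 1.37, adjusted p = 0.0281). In shoots the root markers summed to 1863 to 2386 under salt+ABA, 1336 to 2249 under salt and 3772 to 5162 in the control. Most of the shoot signal was NAAT1, an enzyme of phytosiderophore synthesis. The part of these shifts in the changes of expansins was not tested.

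In control plants most of the measurable wall-loosening genes were brighter in roots. Over all 12 groups, treated groups included, 24 of the 30 genes had at least 1 group with all 3 arrays at an intensity of 100 or more. All 24 reached that level in a root group, 16 of them also in a shoot group, and none in shoots alone. EXPA29 and EXPA31 reached it only in treated roots. The same count was not made over all probe sets. The genes under 100 on all 36 arrays were EXPA4, known from growing internodes, EXPA26, EXPA32, and the pollen-type beta-expansins EXPB9 and EXPB10. EXPA4 lay between 15.5 and 27.5 on the 18 root arrays, all in the unresolved range, and between 24.2 and 45.6 on the 18 shoot arrays, with a median of 33.8. By adjusted p alone it was lower in control roots than in control shoots, with log2 differences of -0.28 in PL177 (adjusted p = 0.00427) and -0.33 in IR64 (adjusted p = 0.000812). The pollen markers as a whole, which include EXPB9 and EXPB10, summed to 68 to 99.5 in roots and 56 to 79.7 in shoots.

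**Figure D1:**
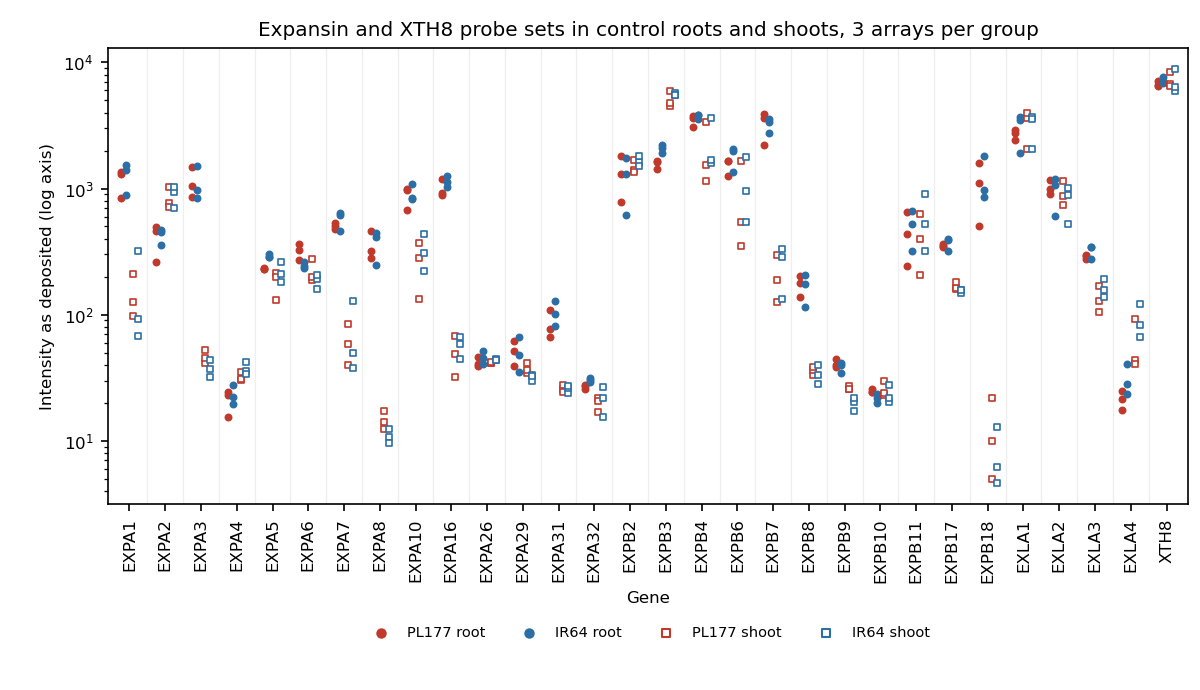
Intensity of each gene in control plants on a log axis, 1 point per array and 3 arrays per group, with filled circles for roots, open squares for shoots, red for PL177 and blue for IR64. EXPB18, EXPB7, EXPA3, EXPA16 and EXPA8 have roots far above shoots with no overlap, and EXPB3 has shoots above roots.

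Root against shoot was tested in control plants, in 1 fit over all 36 arrays. In PL177, 13 genes were higher and 1 was lower in roots, where 16.3% of all probe sets were called. In IR64 the counts were also 13 and 1, with a background called of 16%. Counting only genes higher in roots, the background was 7.98% in PL177 and 7.82% in IR64, against 43.3% of the members in each. The median log2 difference over the 30 genes was 0.49 in PL177 and 0.45 in IR64, and over all probe sets it was 0.02 in PL177 and 0.01 in IR64. Among EXPA genes 6 of 14 in PL177 and 7 of 14 in IR64 were higher in roots, and among EXPB genes 6 of 11 in each.

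EXPB18 had the largest root excess. Its control intensities were 502, 1582 and 1101 in PL177 roots, against 10, 21.9 and 4.95 in PL177 shoots. In IR64 they were 862, 1802 and 976 in roots and 12.9, 4.63 and 6.22 in shoots. The groups were far apart, with all 6 shoot arrays in the unresolved range. The log2 difference was 4.68 ± 0.42 (SE) in PL177 and 5.03 ± 0.42 in IR64, and because the shoot values lie under the 32 added before the log, both understate it. EXPB7 showed 3885, 2221 and 3591 in PL177 roots, against 300, 189 and 127 in PL177 shoots, a log2 difference of 4.03 ± 0.31. In IR64 it had 3370, 2742 and 3562 in roots and 331, 286 and 132 in shoots. EXPB7 was thus above the floor in shoots, where EXPB18 was not. Its neighbour EXPB8 had a smaller root excess, with log2 differences of 1.64 in PL177 and 1.58 in IR64.

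Among alpha-expansins EXPA3 and EXPA16 were bright in roots and close to the floor in shoots. EXPA3 measured 1042, 852 and 1469 in PL177 control roots, against 41.1, 45.4 and 52.6 in shoots, and its log2 difference was 4.00 ± 0.22 in PL177 and 4.11 ± 0.22 in IR64. EXPA16 measured 926, 1185 and 892 in PL177 control roots, against 67.5, 48.6 and 31.9 in shoots, with log2 differences of 3.85 ± 0.14 in PL177 and 3.83 ± 0.14 in IR64. EXPA8, which shapes the rice root system when overexpressed, stood at 283 to 457 in PL177 control roots and 12.5 to 17.2 in PL177 control shoots. EXPA10, a root gene that aluminium induces in rice, was at 678 to 986 in PL177 control roots and 134 to 367 in PL177 control shoots. Both were called in both genotypes, EXPA8 with log2 differences of 3.15 in PL177 and 3.24 in IR64 and EXPA10 with 1.86 in PL177 and 1.61 in IR64. EXPA1, with log2 differences of 2.92 in PL177 and 3.08 in IR64, was called likewise, as were EXPA7, EXPB4, EXPB6 and EXPB17. EXLA3 was called in PL177 at 1.04 and not in IR64 at 0.91, and EXPA31 was called in IR64 at 1.22 and not in PL177 at 0.99.

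Some of these calls rested on the choice of probe set or on 1 array. EXPA7 had 3 probe sets, and the other 2 stayed between 21.3 and 152 on all arrays, without a root excess. With the mean of a gene's probe sets, EXPA7 was no longer called, at a log2 difference of 0.79 in PL177 and 0.75 in IR64, and EXPB17 also lost its call. The EXPB4 probe set is one the array's design marks as shared between similar genes. Its call was lost without PL177 shoot control replicate 2 in PL177, and without IR64 shoot control replicate 2 or 3 in IR64. The EXPB6 call was lost without PL177 shoot control replicate 3 in PL177, and without IR64 shoot control replicate 3 or IR64 root control replicate 2 in IR64. Without those arrays the log2 difference was 0.998 for EXPB4 in PL177 and 0.969 or 0.948 in IR64, and 0.93 for EXPB6 in PL177 and 0.70 or 0.98 in IR64. The EXPB17 and EXLA3 calls in PL177 were close to 2-fold as well, and without PL177 shoot control replicate 2 they were 0.99 and 0.91.

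EXPB3 was the 1 gene called lower in roots. It had 1654, 1437 and 1626 in PL177 control roots, against 5904, 4535 and 4764 in PL177 control shoots. IR64 arrays read 2101, 1921 and 2209 in roots and 5725, 5529 and 5482 in shoots. Every shoot array exceeded every root array, and the log2 difference was -1.29 ± 0.17 in PL177 and -1.05 ± 0.17 in IR64. Without IR64 root control replicate 2 the IR64 value was -0.994 and was not called. EXPA2, known from elongating rice coleoptiles, had log2 differences of -0.82 in PL177 and -0.81 in IR64, and EXLA4 had -0.73 in PL177 and -0.96 in IR64, all below the 2-fold threshold.

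XTH8, a gibberellin-responsive gene of elongating leaf sheaths in rice, was bright everywhere. Its control intensities were 6543, 6565 and 7128 in PL177 roots, against 8448, 6699 and 6470 in PL177 shoots. In IR64 they were 6916, 7084 and 7696 in roots and 8862, 5925 and 6400 in shoots. The root and shoot arrays overlapped in both genotypes. In control roots the other probe sets with the highest signal were EXPB4, EXPB7, EXLA1 and EXPB3 in both genotypes. In control shoots they were EXPB3, EXLA1, EXPB4 and EXPB2. EXLA1 overlapped between organs, at 2446 to 2896 in PL177 control roots and 2049 to 3971 in PL177 control shoots.

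Other wall and growth genes were set beside them as lists by name. Of 5 CSLC genes, which encode synthases of the xyloglucan backbone, 3 were higher in roots in each genotype. Of 11 endo-1,4-beta-glucanase genes 5 were higher in roots in each, of 10 plasma membrane aquaporins 6 were higher and 1 lower in PL177 and 4 higher and 1 lower in IR64, and of 9 cellulose synthase genes none was called. A root excess was thus found in several of the lists and was not tested as particular to expansins.

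The responses to treatment differed in direction between organs and genes, and few genes passed the 2-fold threshold. The counts were 0 to 4 genes per comparison of 30. The map of fold changes shows these calls beside smaller shifts that passed the adjusted p alone.

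**Figure D2:**
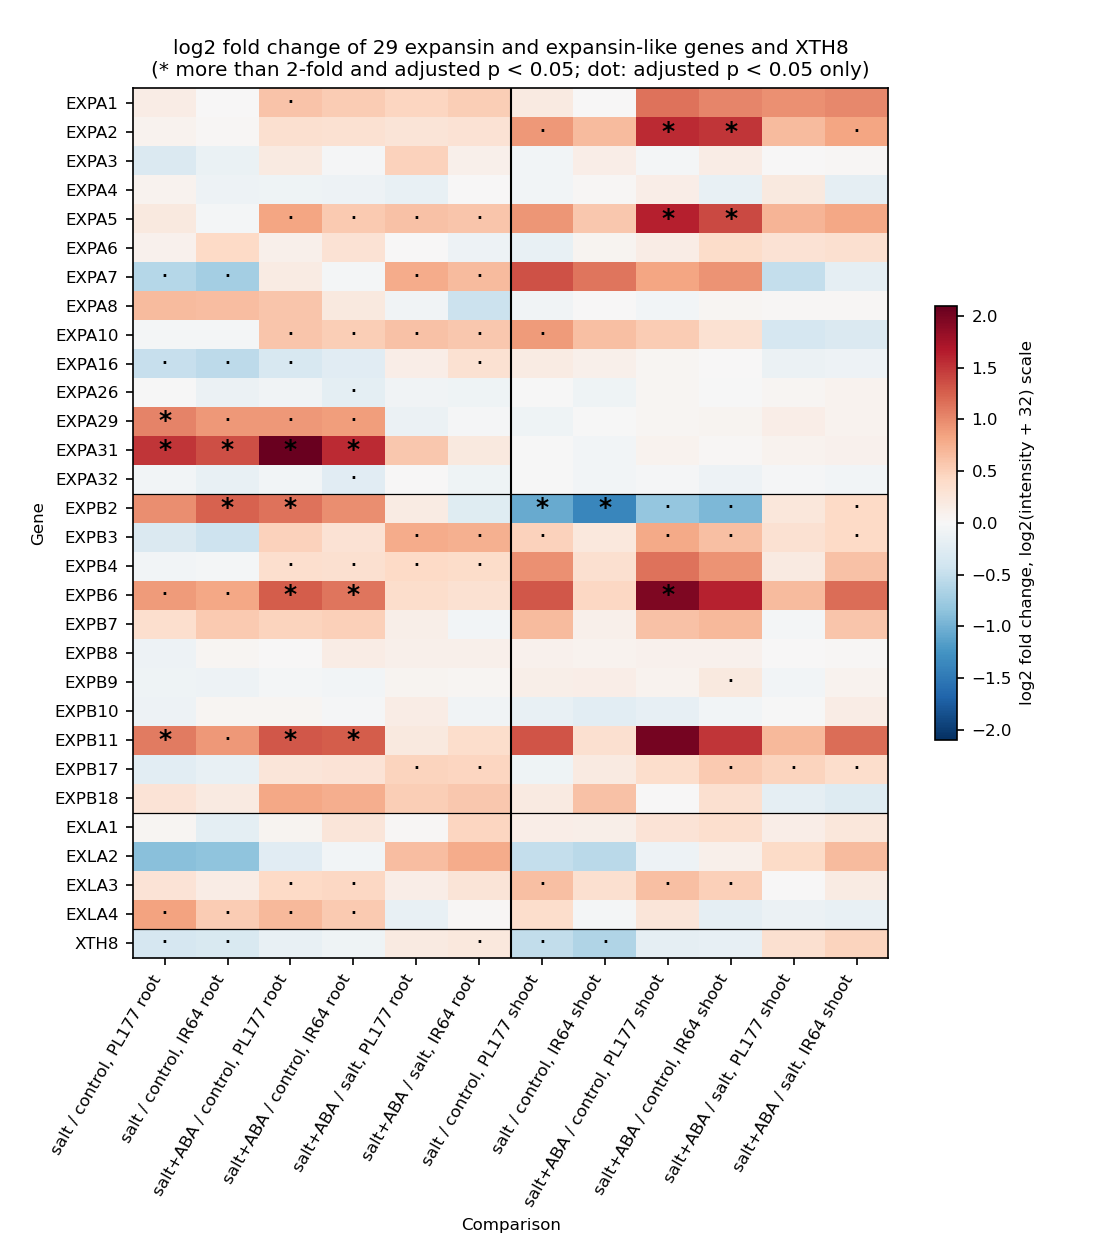
log2 fold change of each gene (rows) in each of 12 comparisons of treatments (columns; roots left, shoots right), red for higher and blue for lower in the treatment named first. Stars mark calls and dots an adjusted p below 0.05 without a 2-fold change; the stars of roots are all red, and EXPB2 has the blue stars of shoots.

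Under salt alone, beta-expansin EXPB2 fell in shoots of both genotypes and was the only member called there. In PL177 1 of 30 genes was lower and none higher, with 2.25% of all probe sets called, and in IR64 the counts were the same, with 2.35% called. A member share of 3.33% is near those backgrounds. EXPB2 had 752, 674 and 625 in PL177 salt shoots, against 1413, 1693 and 1345 in PL177 control shoots. The IR64 intensities were 576, 557 and 680 in salt shoots and 1619, 1801 and 1521 in control shoots. All 6 salt arrays were far below all 6 control arrays. The log2 fold change was -1.05 ± 0.12 in PL177 (adjusted p = 0.000121 in limma) and -1.36 ± 0.12 in IR64 (adjusted p = 1.4e-05). In PL177 the change stayed close to 2-fold, and without PL177 salt replicate 3 it was -0.99 and without PL177 control replicate 2 it was -0.94, both under the threshold with adjusted p at or below 0.000964. In IR64 no single array removed the call. Leaving out PL177 control replicate 1 brought 4 further genes past both thresholds in PL177 salt shoots, EXPB6 (1.87), EXPB4 (1.37), EXPA10 (1.11) and EXPA2 (1.03), all higher.

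With salt+ABA the EXPB2 signal in shoots lay between those of salt and control. It was 812, 789 and 842 in PL177 and 732, 845 and 874 in IR64, still below every control array. Its log2 fold change from the control was -0.81 ± 0.12 in PL177 (adjusted p = 0.00211) and -0.95 ± 0.12 in IR64 (adjusted p = 0.00056), below the 2-fold threshold. Salt+ABA exceeded salt by a log2 difference of 0.24 in PL177 and 0.42 in IR64, and the adjusted p of the IR64 value was 0.0483.

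In roots EXPB2 moved the other way. It had 2809, 2796 and 2811 in PL177 salt+ABA roots, 3274, 3484 and 1497 in PL177 salt roots, and 784, 1298 and 1823 in PL177 control roots. In IR64 it had 2190, 2135 and 2280 in salt+ABA roots, 2363, 3431 and 2592 in salt roots, and 622, 1310 and 1749 in control roots. Every salt+ABA array exceeded every control array in both genotypes, the salt arrays did so in IR64, and in PL177 salt replicate 3 fell within the control range. The rise was called for salt+ABA against control in PL177 (log2 1.14 ± 0.35, adjusted p = 0.0426) and for salt against control in IR64 (log2 1.23 ± 0.35, adjusted p = 0.0346). The 2 remaining comparisons with control gave 0.97 ± 0.35 each and were not called. These root calls depended on single arrays: without PL177 control replicate 1 the PL177 value was 0.82 with an adjusted p of 0.181, and without IR64 control replicate 1 the IR64 value was 0.82 with an adjusted p of 0.148. Those 2 control arrays were the lowest of their groups. The PL177 adjusted p was also 0.0765 to 0.110 without any 1 PL177 salt+ABA array or control replicate 2, and 0.0559 to 0.0563 without any 1 IR64 salt+ABA array, and the IR64 adjusted p was 0.122 or 0.0684 without salt replicate 2 or 3. Without PL177 salt replicate 3, salt against control in PL177 was called at 1.34.

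EXPB2, whose silencing in rice reduces root system growth, was thus higher in roots and lower in shoots. It is among the genes that the study listed from these same samples as changed by salt in both organs, so that these directions are not independent evidence. For this gene the difference between organs was tested directly. The root minus shoot difference of the salt response was 2.01 ± 0.41 in PL177 (adjusted p = 0.00232) and 2.59 ± 0.41 in IR64 (adjusted p = 0.000135). For salt+ABA against control it was 1.95 ± 0.41 in PL177 and 1.93 ± 0.41 in IR64, with adjusted p of 0.00256 in PL177 and 0.00348 in IR64. Over all members, 3 responses to salt in PL177 and 2 in IR64 and 3 responses to salt+ABA in each genotype differed between organs. The background called was 2.72% and 2.93% for salt in PL177 and IR64, and 2.35% and 1.95% for salt+ABA in PL177 and IR64. For salt+ABA against salt no member differed between organs, on backgrounds of 2.67% in PL177 and 2.84% in IR64. The 4 EXPB2 differences were called also when any 1 array was left out, although a fit of only the arrays compared lost the salt call in PL177.

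**Figure D3:**
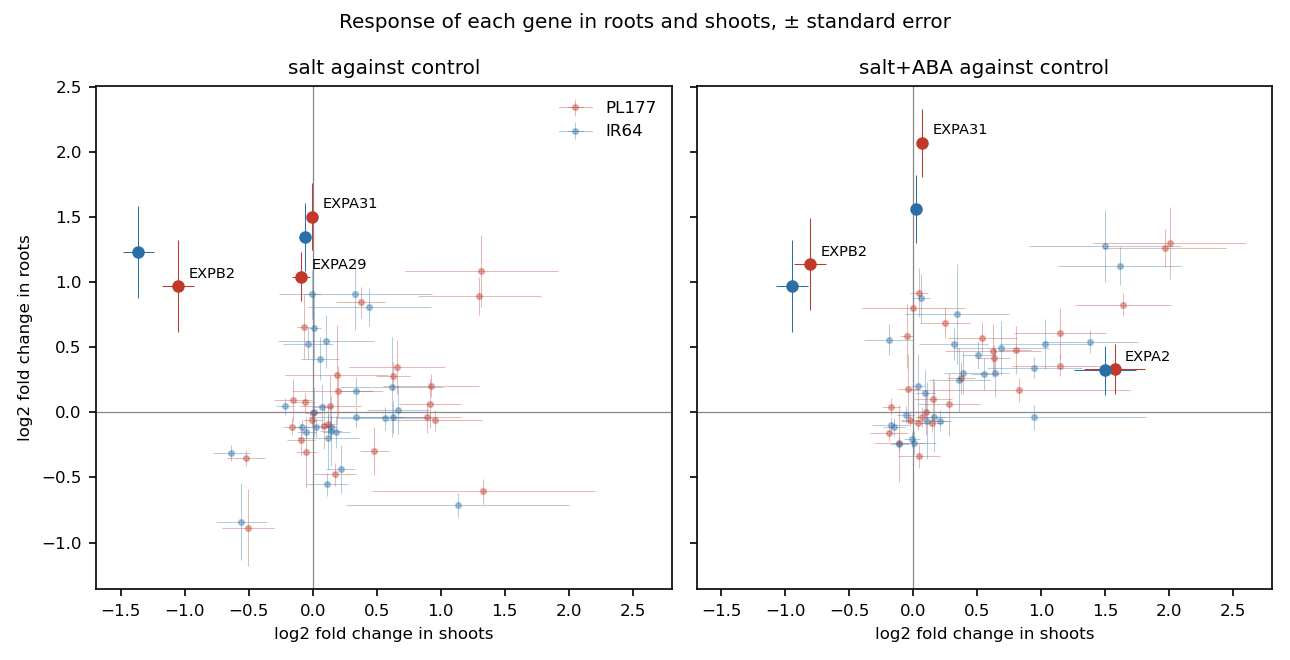
log2 fold change of each gene in roots (vertical) against shoots (horizontal), with standard errors, for salt against control (left) and salt+ABA against control (right), red for PL177 and blue for IR64. Large points are genes whose responses differed between organs by more than 2-fold with adjusted p below 0.05; EXPB2 lies at upper left, EXPA31 near 0 in shoots and high in roots, and EXPA2 at lower right of the right panel.

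In salt roots 3 genes were up-regulated in PL177 and 2 in IR64, and none was down-regulated. The background called was 1.34% in PL177 and 1.2% in IR64. EXPA31 was called in both genotypes. It had 385, 447 and 150 in PL177 salt roots, against 77.3, 110 and 66 in PL177 control roots. IR64 plants gave 288, 316 and 385 in salt roots and 101, 128.1 and 80.8 in control roots. No salt array fell within the control range, although PL177 salt replicate 3 was far below the other 2. The log2 fold change was 1.50 ± 0.26 in PL177 (adjusted p = 0.0016) and 1.35 ± 0.26 in IR64 (adjusted p = 0.00346). A fit of only the arrays compared lost the PL177 call (adjusted p = 0.0655), and a larger value than 32 added before the log lost the IR64 call (0.93).

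EXPA31 was also the gene most raised by salt+ABA in roots. It had 474, 464 and 399 in PL177 salt+ABA roots and 338, 358 and 425 in IR64 salt+ABA roots, above every control array named above. The log2 fold change from control was 2.07 ± 0.26 in PL177 (adjusted p = 7.37e-05), a 4.2-fold rise, and 1.56 ± 0.26 in IR64 (adjusted p = 0.00101). Both calls stood under all 29 alternatives. Among these, the run with no fold threshold could not lose a call, and EXPA31 passed the dim filter only through treated roots. In shoots EXPA31 stayed between 21.4 and 30.5 on all 18 arrays, in the range where a response could not be measured, so that the organ differences that follow carry the root response alone. Its salt response differed between root and shoot by 1.55 ± 0.29 in PL177 and 1.45 ± 0.29 in IR64, and its salt+ABA response by 2.06 ± 0.29 in PL177 and 1.58 ± 0.29 in IR64, all 4 called.

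EXPA29 showed a like pattern at a lower brightness. It had 143, 195 and 92.4 in PL177 salt roots, against 39.1, 51.2 and 62.1 in PL177 control roots. In IR64 it had 101, 162 and 121 in salt roots and 34.9, 66.4 and 47.8 in control roots. All salt arrays exceeded all control arrays of their genotype. The log2 fold change was 1.04 ± 0.19 in PL177, which was called (adjusted p = 0.00212), and 0.91 ± 0.19 in IR64, which missed the fold threshold (adjusted p = 0.00536). The PL177 call was lost without salt replicate 2 (0.84) or control replicate 1 (0.93), and with a larger value in place of 32 added before the log (0.58). In shoots EXPA29 stayed between 24.9 and 44.9, and the organ difference of the salt response was called in PL177 (1.14 ± 0.21) and was 0.92 ± 0.21 in IR64. Without PL177 root salt replicate 2 the PL177 difference was 0.93.

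EXPB11 and EXPB6 were the beta-expansins raised in roots beside EXPB2. EXPB11 had 1166, 1203 and 988 in PL177 salt+ABA roots, 1187, 1046 and 738 in salt roots and 243, 440 and 648 in control roots. IR64 arrays read 1283, 1252 and 1101 in salt+ABA roots, 1029, 898 and 954 in salt roots and 317, 526 and 660 in control roots. Every treated array exceeded every control array of its genotype. Salt+ABA against control gave a log2 fold change of 1.30 ± 0.28 in PL177 (adjusted p = 0.00485) and 1.28 ± 0.28 in IR64 (adjusted p = 0.00678), both called. Salt against control gave 1.09 ± 0.28 in PL177, called (adjusted p = 0.016), and 0.91 ± 0.28 in IR64, not called (adjusted p = 0.0453). In each of the 3 called comparisons the call was lost without the control array numbered 1 of that genotype, the lowest control array, at 0.95 and 0.996 for salt+ABA and 0.74 for salt. The PL177 salt call was also lost without salt replicate 1 or 2, with adjusted p of 0.0589 and 0.0541.

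EXPB6, the beta-expansin with locus name Os10g0555600, appears among candidate genes that the study chose on these same samples. The study listed it as raised by salt in PL177 shoots and not in IR64, in a chromosome region introgressed into PL177. Its direction in these samples is thus not independent evidence, although the study listed no root value for it. EXPB6 had 3964, 4021 and 3377 in PL177 salt+ABA roots, 3402, 3208 and 2462 in salt roots, and 1263, 1659 and 1658 in control roots. The IR64 intensities were 3780, 3898 and 3731 in salt+ABA roots, 3088, 3064 and 3371 in salt roots, and 1351, 2052 and 1978 in control roots. The order was salt+ABA, salt and control in the means of both genotypes, and treated and control arrays did not overlap. Salt+ABA against control was called in both, at 1.27 ± 0.15 in PL177 (adjusted p = 3.67e-05) and 1.13 ± 0.15 in IR64 (adjusted p = 0.000128), a 2.4-fold and a 2.18-fold rise. Salt alone gave 0.90 ± 0.15 in PL177 (adjusted p = 0.00109) and 0.81 ± 0.15 in IR64 (adjusted p = 0.00232), below the fold threshold. Without IR64 control replicate 1 the IR64 salt+ABA value was 0.94, and without PL177 salt replicate 3 the PL177 salt value was called at 1.03.

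With salt+ABA, 4 genes were up-regulated in PL177 roots (EXPA31, EXPB11, EXPB6 and EXPB2) and 3 in IR64 roots (EXPA31, EXPB11 and EXPB6), and none was down-regulated. The background called was 2.01% in PL177 and 1.67% in IR64, and for higher calls it was 1.1% in PL177, against 13.3% of the members, and 0.875% in IR64, against 10% of the members. As for the organs, this background was not matched to the members for brightness. The median log2 fold change over the 30 genes was 0.35 in PL177 roots and 0.30 in IR64 roots, while that over all probe sets was 0.00 in each. Of the markers in the same salt+ABA roots, IRT1 was higher than in control roots, by a log2 fold change of 1.64 in PL177 and 1.48 in IR64 (both called), whereas Lsi1 and Lsi2 were lower by adjusted p alone, by -0.35 and -0.53 in PL177 and -0.32 and -0.49 in IR64. The root hair marker CSLD1 had 0.41 in PL177 (adjusted p = 0.0221) and 0.21 in IR64 (adjusted p = 0.28) against control. The part of these shifts in the expansin changes was not tested.

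**Figure D4:**
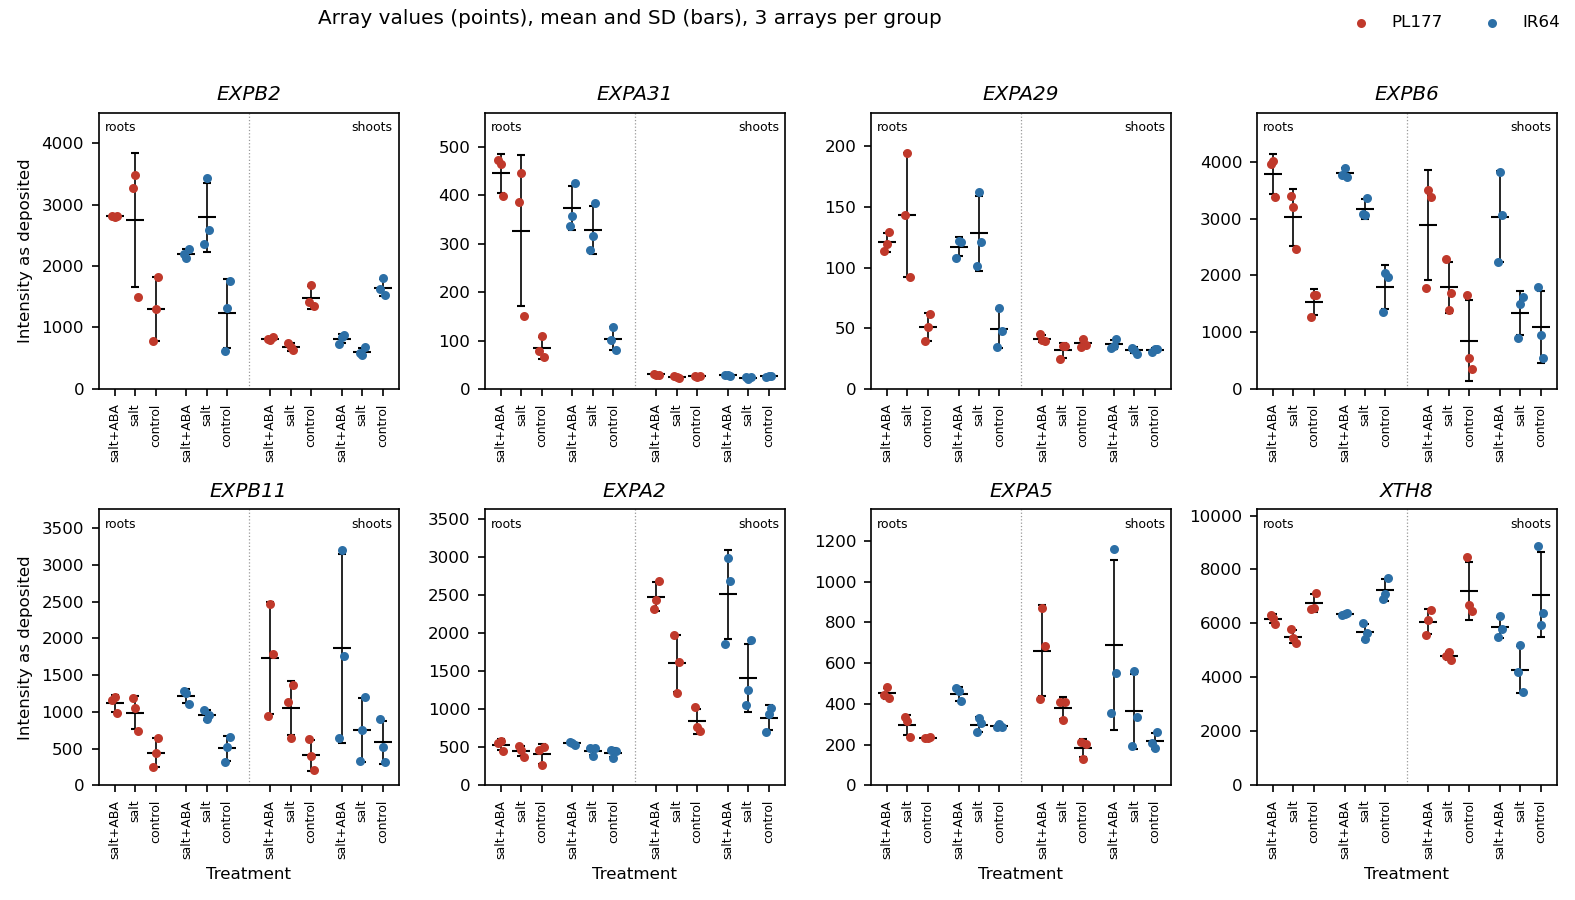
Intensity as deposited on each array (points), with group mean and SD (bars), in roots (left of the dotted line) and shoots (right), red for PL177 and blue for IR64, with treatments from salt+ABA to control. EXPA31 and EXPA29 lie above their controls in treated roots and stay low on all shoot arrays, and EXPA5 is above its control with salt+ABA in both organs. EXPB2 lies below its control in treated shoots. In treated roots it lies above its control, except for PL177 salt replicate 3, which falls within the control range.

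In shoots salt+ABA raised EXPA2, EXPA5 and EXPB6, of which EXPB6 was also called in roots. Against control 3 genes were up-regulated in PL177 and 2 in IR64, with none down-regulated, on a background called of 1.04% in PL177 and 1.09% in IR64. For higher calls alone the background was 0.309% in PL177, against 10% of the members, and 0.314% in IR64, against 6.67% of the members. Again the background was not matched for brightness. EXPA2 had 2322, 2437 and 2693 in PL177 salt+ABA shoots, 1972, 1212 and 1627 in salt shoots and 1028, 770 and 720 in control shoots. In IR64 it had 1856, 2994 and 2688 in salt+ABA shoots, 1059, 1252 and 1910 in salt shoots and 700, 943 and 1021 in control shoots. No array of salt or salt+ABA fell within the control range. Salt+ABA against control gave 1.57 ± 0.24 in PL177 (adjusted p = 0.00222), a 2.97-fold rise, and 1.50 ± 0.24 in IR64 (adjusted p = 0.00246), a 2.83-fold rise. Salt alone gave 0.91 ± 0.24 in PL177 (adjusted p = 0.0241), below the fold threshold, and 0.66 ± 0.24 in IR64 (adjusted p = 0.107).

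In roots EXPA2 had 558, 586 and 449 in PL177 salt+ABA samples, against 465, 263 and 499 in PL177 control samples, which overlapped. Its salt+ABA response was thus smaller in roots than in shoots, by -1.16 ± 0.32 in PL177 (adjusted p = 0.0188) and -1.10 ± 0.32 in IR64 (adjusted p = 0.0298), both called. Leaving out 1 of 3 root arrays in PL177 (salt+ABA replicate 3, control replicate 1 or 3) or 1 of 7 arrays in IR64 (shoot salt+ABA 2 or 3, shoot control 1, root salt+ABA 2 or 3, root control 1 or 3) ended the call, at values as small as -0.98 in PL177 and -0.92 in IR64.

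EXPA5 spread more widely. It had 426, 872 and 682 in PL177 salt+ABA shoots, 411, 320 and 409 in salt shoots and 214, 131 and 200 in control shoots. IR64 plants gave 357, 1159 and 549 in salt+ABA shoots, 192, 561 and 334 in salt shoots and 209, 183 and 261 in control shoots. The salt+ABA arrays were above the control arrays, while the IR64 salt arrays overlapped them. Salt+ABA against control gave 1.64 ± 0.37 in PL177 (adjusted p = 0.0221) and 1.38 ± 0.37 in IR64 (adjusted p = 0.043). Both calls were fragile. In IR64 the value was 0.95 with an adjusted p of 0.185 without salt+ABA replicate 2. There 15 of 30 alternatives lost the call, and the run with no fold threshold could not lose it. In PL177 each of salt+ABA replicates 2 and 3 and control replicates 1 and 2 was needed, with adjusted p of 0.0527 to 0.0841 without one of them.

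In roots EXPA5 varied much less. It had 443, 483 and 431 in PL177 salt+ABA roots, 333, 317 and 239 in salt roots and 230, 230 and 236 in control roots. In IR64 it had 477, 461 and 412 in salt+ABA roots, 259, 329 and 307 in salt roots and 287, 300 and 286 in control roots. Every salt+ABA array exceeded every other root array of its genotype. Salt+ABA against control gave a log2 fold change of 0.83 ± 0.09 in PL177 (adjusted p = 1.51e-05) and 0.54 ± 0.09 in IR64 (adjusted p = 0.00075). The log2 difference between salt+ABA and salt was 0.62 ± 0.09 in PL177 (adjusted p = 0.000293) and 0.59 ± 0.09 in IR64 (adjusted p = 0.000509). All 4 were below the fold threshold. The root minus shoot difference of the salt+ABA response of EXPA5 was -0.72 in PL177 and -0.76 in IR64 and was not called (adjusted p of 0.258 in PL177 and 0.243 in IR64).

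EXPB6 in shoots was called for salt+ABA against control in PL177 (log2 1.96 ± 0.48, adjusted p = 0.0299) and not in IR64 (1.61 ± 0.48, adjusted p = 0.0622). The IR64 rise was called in limma with dim probe sets left out (adjusted p = 0.0408) and with all 36 arrays in 1 fit (1.56, adjusted p = 0.00615). It was called as well without PL177 shoot control replicate 1 or 3 or IR64 shoot control replicate 1. Its arrays were 1781, 3514 and 3384 in PL177 salt+ABA shoots and 1663, 540 and 353 in PL177 control shoots. In IR64 they were 2231, 3827 and 3062 in salt+ABA shoots and 1792, 956 and 545 in control shoots. The control arrays numbered 1 were the highest in both genotypes, and without any 1 of 4 PL177 arrays (salt+ABA 2 or 3, control 2 or 3) the adjusted p was between 0.0677 and 0.117. EXPB11 had the same spread in shoot controls, with 627, 396 and 206 in PL177 and 905, 527 and 320 in IR64, against 940, 2471 and 1781 in PL177 salt+ABA shoots. Its log2 fold change of 2.0 ± 0.60 in PL177 shoots was not called (adjusted p = 0.0668). With dim probe sets left out it was called in limma (adjusted p = 0.0436), as with all 36 arrays in 1 fit (1.92, adjusted p = 0.0108).

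Salt+ABA was then set directly against salt, the comparison of what ABA added under salt. No member was called in any organ or genotype. The background called was 0.711% in PL177 shoots, 0.747% in IR64 shoots, 1.37% in PL177 roots and 1.3% in IR64 roots. At an unadjusted p below 0.05 with a 2-fold change, 2 genes passed in IR64 shoots, EXPA1 and EXPB6, and none in the other 3 comparisons. These 2 genes were chosen after their values were seen, and the same count was not made over all probe sets. In a fit of only the arrays compared, those 2 genes were called. Single arrays brought other calls: without IR64 shoot salt replicate 3 or salt+ABA replicate 1, EXPA2 was called in IR64 shoots (1.096 and 1.04), without IR64 shoot control replicate 3, EXPA1 was (1.01), and without root salt replicate 1, EXLA2 was called in roots of that genotype (1.05 in PL177 and 1.04 in IR64).

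By the adjusted p alone, without a fold threshold, several members were slightly higher with ABA, and none was lower. The share of all probe sets lower by that rule is not given here. There were 6 of 30 in PL177 roots and 8 of 30 in IR64 roots, XTH8 among the 8, where 3.19% and 3.74% of all probe sets were higher by that rule. In shoots there were 1 of 30 in PL177 and 4 of 30 in IR64, on backgrounds of 5.54% and 3.7%. The genes higher in both root comparisons were EXPA5, EXPA7, EXPA10, EXPB3, EXPB4 and EXPB17. EXPA10 had 1358, 1437 and 1267 in PL177 salt+ABA roots, against 927, 869 and 854 in PL177 salt roots. IR64 arrays read 1378, 1334 and 1257 in salt+ABA roots and 858, 876 and 1010 in salt roots. The groups did not overlap, with log2 differences of 0.61 ± 0.12 in PL177 (adjusted p = 0.00546) and 0.56 ± 0.12 in IR64 (adjusted p = 0.0105). EXPB3 gave 0.78 ± 0.18 in PL177 and 0.74 ± 0.18 in IR64, and EXPB17 gave 0.48 ± 0.12 in PL177 and 0.45 ± 0.12 in IR64.

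EXPA7, tied to salt tolerance by overexpression in rice, shifted below the fold threshold in both genotypes. It had 592, 600 and 593 in PL177 salt+ABA roots, 382, 335 and 322 in salt roots and 537, 479 and 501 in control roots. The IR64 intensities were 553, 578 and 535 in salt+ABA roots, 303, 374 and 373 in salt roots and 638, 457 and 612 in control roots. Salt arrays lay below all control and all salt+ABA arrays in both genotypes. Salt against control gave -0.61 ± 0.09 in PL177 (adjusted p = 0.00069) and -0.71 ± 0.09 in IR64 (adjusted p = 0.000207), and salt+ABA against salt gave 0.78 ± 0.09 in PL177 and 0.67 ± 0.09 in IR64. The 2 dimmer probe sets of EXPA7 had means of 61 to 80.7 and 30.6 to 35.8 in the root groups and did not share that order.

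XTH8 was lower under salt in both organs and both genotypes, always by less than 2-fold. Its intensities were 5780, 5467 and 5289 in PL177 salt roots, against the control values given above, and 5998, 5430 and 5636 in IR64 salt roots. In shoots they were 4779, 4956 and 4632 in PL177 salt samples and 4204, 5214 and 3452 in IR64 salt samples. Every salt array was below every control array of its genotype and organ. The log2 fold change was -0.35 ± 0.06 in PL177 roots, -0.31 ± 0.06 in IR64 roots, -0.52 ± 0.15 in PL177 shoots and -0.64 ± 0.15 in IR64 shoots, with adjusted p of 0.00159, 0.00346, 0.032 and 0.0128 in that order. By adjusted p alone, 7.09% of all probe sets were lower in PL177 salt roots, 5.94% in IR64 salt roots, 5.1% in PL177 salt shoots and 3.97% in IR64 salt shoots. With salt+ABA the XTH8 arrays were 5990 to 6310 in PL177 roots, 6322 to 6368 in IR64 roots, 5558 to 6480 in PL177 shoots and 5484 to 6273 in IR64 shoots, and none of these differed from control by the adjusted p.

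By the same rule EXPA16 was also lower in salt roots, by -0.48 ± 0.09 in PL177 and -0.55 ± 0.09 in IR64, so that XTH8, EXPA7 and EXPA16 were the 3 lower members in each. EXLA2 had the lowest log2 values of salt roots, -0.89 in PL177 and -0.85 in IR64, which did not pass. Its PL177 salt roots had 1027, 399 and 431, against 1159, 990 and 907 in control roots, and without PL177 salt replicate 1 it was called at -1.28. In IR64 it was called at -1.10 without salt replicate 1 and at -1.12 without control replicate 2. The EXLA2 probe set is one the design marks as able to bind unrelated transcripts. Its other probe set, without that mark, had 862, 252 and 316 in PL177 salt roots, against 942, 850 and 712 in control roots. In IR64 that probe set had 598, 296 and 348 in salt roots and 861, 516 and 970 in control roots. EXLA4 was higher in salt roots, by 0.85 ± 0.12 in PL177 and 0.53 ± 0.12 in IR64, at intensities of only 45.7 to 77.4 against 17.6 to 40.3 in control roots.

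EXPB6, EXPB2, EXPB3 and EXPB4 lie next to each other in that order in the RefSeq rice assembly ASM3414082v1, and their values are set side by side here. In PL177 salt shoots the log2 fold changes were 1.30 ± 0.48 for EXPB6, -1.05 ± 0.12 for EXPB2, 0.48 ± 0.11 for EXPB3 and 0.96 ± 0.37 for EXPB4, of which EXPB2 was called. The study listed EXPB6 for this comparison, where it exceeded 2-fold here without passing the adjusted p. In PL177 salt+ABA roots the log2 fold changes were 1.27 for EXPB6, 1.14 for EXPB2, 0.48 for EXPB3 and 0.36 for EXPB4. Differences between these genes were not tested. How far their probes bind each other's transcripts was not tested either.

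PL177 and IR64 were set against each other next, because a response called in 1 genotype only is not a difference between them. No member was called for a genotype difference of a response or of a level in any organ or treatment. For levels the background called was 0.114% in salt+ABA, 0.119% in salt and 0.112% in control shoots, and 0.114% in salt+ABA, 0.117% in salt and 0.107% in control roots. For responses it was 0.00349% for salt+ABA against control in shoots, 0.00175% for salt+ABA against control and for salt against control in roots, and 0% for the other 3. At an unadjusted p below 0.05, 0 to 2 members passed in each of the 12 comparisons and none of them differed by 2-fold. The same count was not made over all probe sets, so that nothing is read from it. The lowest adjusted p was 0.652, for EXPA5 in control roots, which was lower in PL177 by -0.25 ± 0.09.

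The intervals show what could have been missed. For the salt response of EXPB2 in shoots, the PL177 minus IR64 difference was 0.31 with a 95% interval of -0.06 to 0.68. For the salt+ABA response of EXPA31 in roots it was 0.51 (-0.27 to 1.29), and for EXPB6 in roots 0.14 (-0.30 to 0.58). In shoots the intervals were wide, -1.10 to 1.80 for the salt+ABA response of EXPB6 and -1.30 to 2.31 for that of EXPB11, in the fit without a block. With replicate number within treatment as a block they were -0.42 to 1.117 for EXPB6 and -0.42 to 1.43 for EXPB11. Same-numbered arrays of the genotypes shared deviations more in control shoots (r of 0.704, 0.728 and 0.739) than in salt+ABA shoots (0.447, 0.279 and 0.0406). In control shoots the PL177 array was below the IR64 array of the same number in all 3 pairs for both genes. The blocked PL177 minus IR64 difference there was -0.45 (95% interval -0.99 to 0.10, adjusted p = 0.598) for EXPB6 and -0.44 (-1.09 to 0.22, adjusted p = 0.687) for EXPB11, and neither was called.

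**Figure D5:**
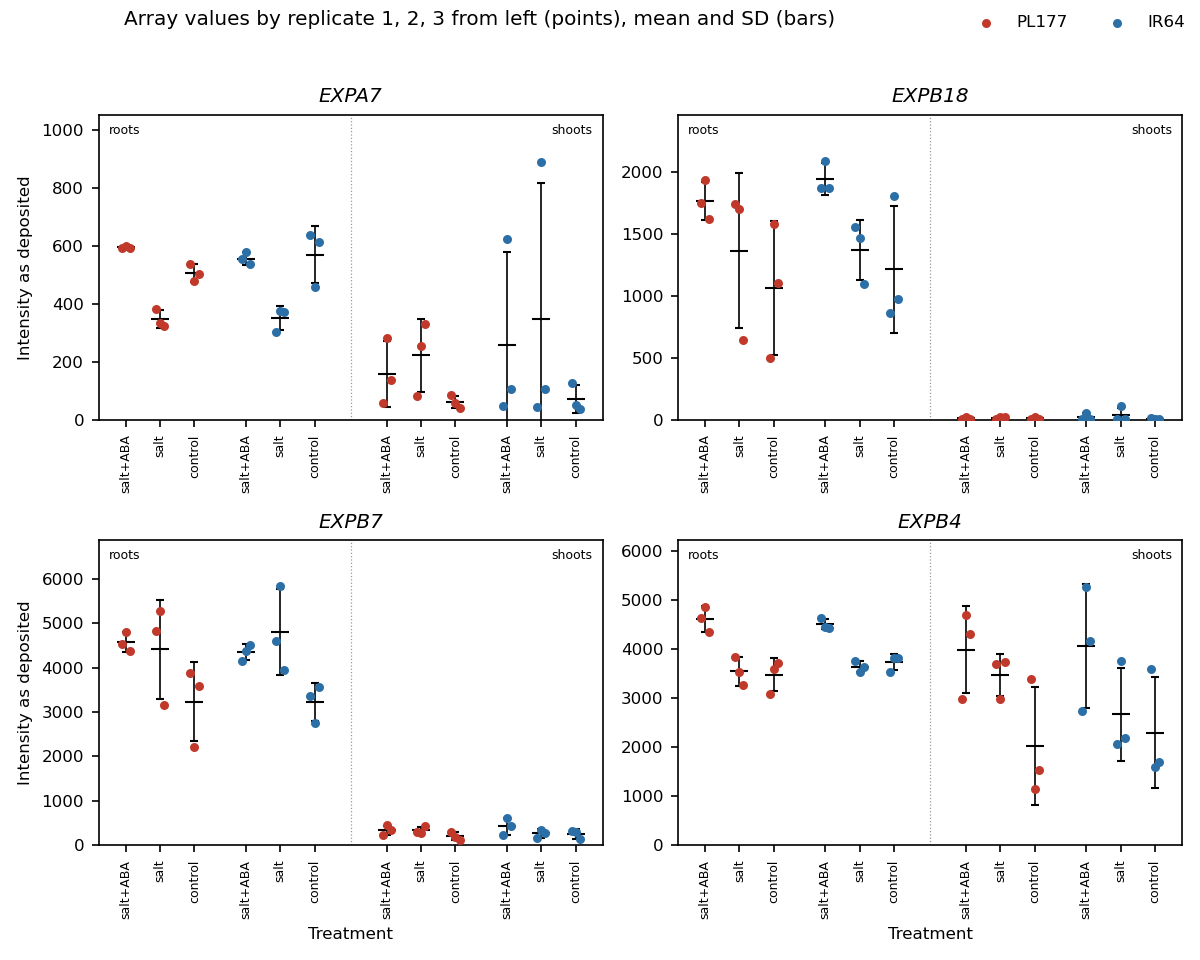
Intensity as deposited on each array (points, replicates 1 to 3 from left to right within a group), with group mean and SD (bars, cut off at 0), in roots (left of the dotted line) and shoots (right), red for PL177 and blue for IR64. In IR64 salt+ABA and salt shoots the array numbered 2 stands above the other 2 for EXPA7 and EXPB18, and in control shoots the array numbered 1 is highest for EXPB4 in both genotypes.

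Some genes spread widely within groups, and the same arrays recurred. EXPA7 had 46.3, 624 and 106 in IR64 salt+ABA shoots and 42.4, 888 and 107 in IR64 salt shoots, where array 2 was the high one in each. EXPB18 had 5.05, 54.8 and 8.97 in IR64 salt+ABA shoots and 7.56, 107 and 9.34 in IR64 salt shoots, again highest on array 2. EXPA7 and EXPB18 were brighter in control roots than in control shoots, but the 888 of EXPA7 exceeded its highest root array (638). The root markers summed to 1959 to 2386 in IR64 salt+ABA shoots and 1764 to 2010 in IR64 salt shoots. Neither range was higher than in control shoots. Lsi2 was 9.11 on array 2 of IR64 salt+ABA shoots and 8.49 on array 2 of IR64 salt shoots. In IR64 roots Lsi2 was 5102 to 5653 with salt+ABA and 6846 to 7730 with salt. Lsi1 and Lsi2 were lowest on array 2 in both shoot groups, whereas NRAMP5 was highest there. NAAT1 and IRT1 were lowest on array 2 with salt+ABA only. Whether root tissue reached those samples was not tested. In PL177 salt roots array 3 was low for EXPA3 (511, against 1232 and 1196 on arrays 1 and 2), EXPB18 (645, against 1743 and 1703) and EXPA8 (376, against 714 and 810).

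The other wall lists gave few calls with treatment. Among the 4 lists, of 35 genes together, GLU10 fell in IR64 salt+ABA shoots (log2 -1.17 ± 0.27 from control), GLU14 rose in PL177 salt+ABA roots (1.03 ± 0.21 from control), and GLU5 was higher with salt+ABA than with salt in PL177 roots (1.04 ± 0.28). No cellulose synthase, CSLC or aquaporin gene was called for any treatment comparison within an organ. Between organs, the salt+ABA response of CSLC3 was higher in roots than in shoots by 1.13 ± 0.25 in PL177 (adjusted p = 0.00411) and 1.01 ± 0.25 in IR64 (adjusted p = 0.0117), and 4 further genes had 1 called difference each, PIP2;5, GLU5, GLU10 and GLU14. CSLC3, GLU5, GLU10, GLU14 and PIP2;5 were named after their values were seen. Cellulose synthases had median log2 values under salt of -0.20 in PL177 roots, -0.23 in IR64 roots, -0.28 in PL177 shoots and -0.26 in IR64 shoots, where the medians of the 30 expansin and XTH8 genes were 0.06, -0.02, 0.13 and 0.11 and those of all probe sets lay between -0.01 and 0.00.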

How the data were processed

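RNA from 36 samples was measured on Affymetrix rice arrays. The deposited values are intensities on a linear scale. How the authors summarised and scaled probe signals was not given in the sources used here. Of 57381 probe sets, 123 controls were left out, and names came from the platform annotation updated through RefSeq (22436 probe sets with 1 gene, 95 with several, 34727 with none). Quantile normalization was run within each organ (18 arrays) before 32 was added and log2 taken. limma 3.58.1 in R 4.3.3 fitted 6 group means per organ, and all 36 arrays in 1 fit to compare organs. A call needed more than 2-fold and a Benjamini-Hochberg adjusted p below 0.05 over 57258 probe sets. Python 3.11.15 with pandas 2.3.3, numpy 2.4.6 and matplotlib 3.10.9 made tables and plots. The test was checked on simulated data.

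Named were, for each treatment comparison, up to 4 called members each way; the 5 brightest in control roots and in control shoots; members called for genotype; 4 each way for root against shoot; and EXPA4, EXPA8, EXPA10, EXPA17, EXPA30, EXPB2, EXPB5, EXPB6 and XTH8. Others named were chosen after their values were seen. Members and lists were chosen with earlier results of these data known. Lists of proton ATPases (1 gene), pectin methylesterases (0) and peroxidases (2) were too short to use, and of root hair markers 1 was measured (CSLD1, 56.4 to 124 in roots and 18.2 to 33.7 in shoots).

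Same-numbered arrays were checked for shared deviations. PL177 and IR64 arrays shared them most in control shoots (r of 0.704, 0.728 and 0.739) and control roots (0.645, 0.695 and 0.584), with no origin stated. The r values were 0.149, 0.505 and 0.266 in salt roots and 0.423, 0.345 and 0.0685 in salt shoots. With salt+ABA they were 0.164, 0.0287 and 0.25 in roots and 0.447, 0.279 and 0.0406 in shoots. With a block for replicate number, or for number within treatment, no member was called for genotype, as without it.

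Alternatives were smaller or larger values added, median centring, trended and robust limma, fewer or more arrays in the fit, the methods' t-test, no fold threshold, a filter on dim probe sets, the mean of a gene's probe sets, replicate blocks, and leaving out arrays.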

Additional observations from a re-analysis of the deposited data

Results flagged for a closer look

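Responses that differed between root and shoot by more than 2-fold, with an adjusted p below 0.05 in limma, were found for 4 genes. Values are root minus shoot differences of log2 fold changes. EXPB2 gave 2.01 for salt against control in PL177, 2.59 in IR64, 1.95 for salt+ABA against control in PL177 and 1.93 in IR64. EXPA31 gave 1.55 for salt in PL177, 1.45 in IR64, 2.06 for salt+ABA in PL177 and 1.58 in IR64. EXPA29 gave 1.14 for salt in PL177. EXPA2 gave -1.16 for salt+ABA in PL177 and -1.10 in IR64. In each of these comparisons 1.95% to 2.93% of all probe sets were called. EXPB2 was listed by the study from these same samples, so that its directions are not independent evidence. All 18 EXPA31 shoot arrays lay between 21.4 and 30.5, in the range under 32 where a response could not be measured, so that its differences carry the root response alone.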

How the results depend on the processing

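The 58 member calls kept their direction under every alternative run, and none was reversed. All stood with a smaller value (16) than 32 added before log2, with no fold threshold, with dim probe sets left out (16 members tested in shoots, 24 in roots) and with the replicate block. The run with no fold threshold could not lose a call, because it only dropped a condition. EXPA29 and EXPA31 passed the dim filter only through treated roots, so that keeping their calls under it is not support. With a larger value added 14 were lost, with the methods' t-test after adjustment 20 of 47 (it was not run for differences of responses), with only the arrays compared 9, with median centring 6, with the mean of a gene's probe sets 4, with trended and robust limma 2, with all 36 arrays in 1 fit 3 of 19, and without both shoot control arrays numbered 2, 8 of 46. The cause was not tested.

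By the labels, same-numbered arrays of different treatments shared only a number. Correlations of their deviations ran from -0.474 to 0.599, and 9 of 36 were over 0.1. The highest were 0.477 and 0.599, for arrays 1 and 2 of salt+ABA and salt in IR64 shoots, so that those arrays did share deviations. The origin of this was not tested. With the replicate block, counts were within 1.5 times those without it; for example PL177 shoots had 4 calls for salt+ABA against control, EXPA1 being the added one (log2 1.15, adjusted p = 0.0452), and IR64 roots 3.

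Counts of members called that moved by over 1.5 times follow. For salt against control in PL177 shoots the count was 0 with the larger value added, 0 by t-test, 6 with no fold threshold, 2 with all 36 arrays in 1 fit and 0 without both arrays numbered 2. In IR64 shoots it was 0 by t-test and 2 with no fold threshold. In PL177 roots it was 1 with the larger value added, 1 with only the arrays compared, 0 by t-test and 8 with no fold threshold. In IR64 roots it was 1 with the larger value added, with trended limma and with only the arrays compared, 0 by t-test and 9 with no fold threshold.

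For salt+ABA against control in PL177 shoots it was 0 by t-test, 6 with no fold threshold, 6 with all 36 arrays and 1 without both arrays numbered 2. In IR64 shoots it was 1 with the larger value added, 1 with only the arrays compared, 0 by t-test, 7 with no fold threshold, 4 with all 36 arrays and 1 without both arrays numbered 2. In PL177 roots it was 2 by t-test and 12 with no fold threshold, and in IR64 roots 1 and 11.

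For salt+ABA against salt it was, with no fold threshold, 1 in PL177 shoots, 4 in IR64 shoots, 6 in PL177 roots and 8 in IR64 roots. In IR64 shoots it was 2 with only the arrays compared and 1 with all 36 arrays.

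For root against shoot under control it was 22 in each genotype with no fold threshold. For root against shoot in the salt response it was 1 with only the arrays compared and 5 with no fold threshold in PL177, and 1 with the larger value added and 4 with no fold threshold in IR64. For the salt+ABA response in IR64 it was 5 with no fold threshold, and for salt+ABA against salt in PL177 1 with the smaller value added and 2 with no fold threshold.

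Leaving out 1 array at a time, counts for salt against control ran from 0 to 5 in PL177 shoots, were 1 in IR64 shoots, and ran from 1 to 5 in PL177 roots and 1 to 4 in IR64 roots. For salt+ABA against control they ran from 1 to 4 in PL177 shoots, 1 to 3 in IR64 shoots, 2 to 5 in PL177 roots and 1 to 4 in IR64 roots. For salt+ABA against salt they were 0 in PL177 shoots and 0 to 1 elsewhere. For root against shoot they ran from 11 to 15 in PL177 and 13 to 14 in IR64. For differences of the salt response between organs they ran from 2 to 5 in PL177 and 2 to 3 in IR64, for the salt+ABA response from 2 to 4 in PL177 and 2 to 3 in IR64, and for salt+ABA against salt from 0 to 1 in each. For genotype differences they were 0 throughout. The lows of shoots included those without PL177 salt replicate 3 or control replicate 2, and the high of 5 was without control replicate 1.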
